A study of Mus musculus with 6 samples.

Results

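Collagen chain genes were the 42 gene models, of 23726 in the deposited count table, whose symbol is Col followed by a type number, the letter a and a chain number, with the hemidesmosome gene Col17a1 left out. They comprised 11 fibrillar genes, 9 genes of the basement membrane and its zone, and 22 others. RNA was sequenced from 6 mouse libraries: total biopsies of healthy skin (1 library), of papillomas induced with DMBA and TPA (2 libraries, each from a distinct papilloma) and of a tumour induced in the same way (1 library), and the cultured lines mSCC-20 (1 library) and mSCC-38 (1 library), both isolated from DMBA/TPA tumours. DMBA mutates keratinocytes, and the phorbol ester TPA, given afterwards, makes mutated clones grow out. The submitters describe mSCC-20 as non-tumorigenic and mSCC-38 as highly tumorigenic. The sources used here do not give strain, age, sex or the number of mice, or whether the lines share a tumour. Each line stands for 1 culture. The p-values rest on the spread of the samples at hand, part of which may be technical.

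Collagens, most of them secreted, are trimers of chains wound around each other through repeats of glycine and 2 further residues. Fibrillar collagens (types I, III and V in skin) form the fibres of the dermis and are made mainly by fibroblasts, type IV collagen forms the sheet of the basement membrane under the epidermis, and fibril-associated, beaded filament and network collagens join these structures to each other. Chains of one type are made in partnership, as Col1a1 and Col1a2 for type I, and carcinomas are known for a rebuilt collagen matrix and for loss of basement membrane chains.

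Total counts ran from 25140489 in papilloma 1 to 42992597 in the tumour, and levels are given as TMM-scaled CPM, counts per 1000000 counts after a scaling between libraries. Where a gene had 0 counts, the true number may be up to 3, or 0.0604 to 0.141 CPM depending on the library. Intervals and this floor cover counting error only. Only the papillomas are replicated (n = 2), with each replicate's value given, and every other group is 1 library. A value after ± is the SE of edgeR's log2 fold change. In each biopsy 8 of 8 keratinocyte markers reached 10 CPM, as did 7 of 8 fibroblast markers in skin and tumour and 6 of 8 in each papilloma. In mSCC-20, 7 of 8 keratinocyte genes were at 10 CPM or more, and in mSCC-38 6 of 8, where Cdh1, which encodes E-cadherin, was at 1.63 CPM against 195 in mSCC-20. Krt10 only just passed, at 10.13 CPM in mSCC-20 and 10.11 CPM in mSCC-38, against 10827 CPM in papilloma 1. Dsg3 was at 14.8 CPM in mSCC-38, against 2227 CPM in the tumour. Krt5, Krt14, Perp and Trp63 were higher in both lines, the lowest value being 245 CPM for Trp63 in mSCC-20. Of the 8 fibroblast markers, Dcn, Dpt, Fap, Lum and Thy1 lay between 0.0302 and 3.14 CPM in the lines. The other 3 were higher: Fbln1 was at 13.8 CPM in mSCC-20 and 175 CPM in mSCC-38, Pdgfra at 5.49 and 33.4 CPM, and Twist2 at 22.4 and 25.0 CPM, above its 4.80 to 13.7 CPM in the biopsies.

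The collagen family took 0.508% of all counts in skin, 0.671% in papilloma 1, 0.592% in papilloma 2 and 0.882% in the tumour, against 0.135% in mSCC-20 and 0.208% in mSCC-38. Each biopsy of a lesion thus gave the family a larger share than skin, and both lines a smaller one. Exact 95% Clopper-Pearson intervals ran from 0.506% to 0.511% in skin and from 0.880% to 0.885% in the tumour. Fibrillar genes held 55.1% to 62.7% of the family's counts in the biopsies, but 0.975% in mSCC-20 and 14.9% in mSCC-38. Basement membrane genes held 74.1% and 57.3% of it in the lines. Of the 42 genes, 16 had their highest level in skin, 14 in the tumour, 10 in a papilloma and 2 in a line (Col4a1 in mSCC-20 and Col16a1 in mSCC-38). In 24 genes at least 1 library reached 10 CPM, and these are given with all their values. The other 18 peaked between 0.0805 CPM (Col9a1) and 8.91 CPM (Col13a1).

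**Figure D1:**
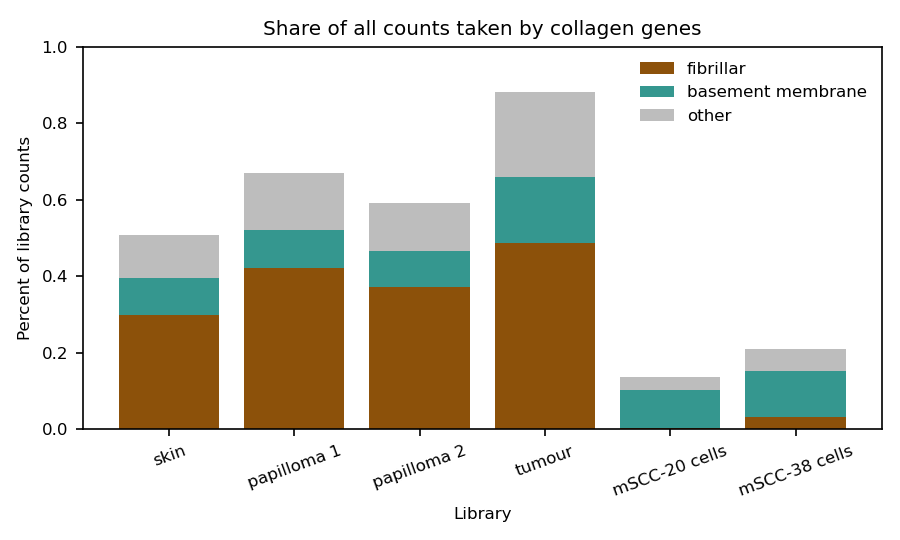
Percent of all counts in each library (y axis) taken by fibrillar (brown), basement membrane (green) and other (grey) collagen genes, with 1 bar per library on the x axis. The tumour bar is the tallest at 0.882%, and the bars of mSCC-20 and mSCC-38 are mostly basement membrane collagen.

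Papilloma against skin asks how collagen expression differs between the benign lesion and the tissue it grew in. The type V fibril genes Col5a1 and Col5a2, the anchoring fibril gene Col7a1, Col12a1 and the network gene Col8a1 rose, while the epidermal basement membrane genes Col4a5 and Col4a6 and the fibril-associated genes Col14a1 and Col16a1 fell. edgeR's quasi-likelihood test, fitted on the 4 biopsies over 16353 genes, called 7 of 40 tested collagen genes higher and 9 lower at an adjusted p under 0.05 (16 of 40, or 40.0%). Over all genes tested 26.0% were called, 12.0% higher and 14.1% lower. With scaling by total counts alone the split of collagen calls was 5 higher and 12 lower, and the median log2 ratio of all genes moved from -0.03 to -0.42. The median log2 ratio over the 37 collagen genes with at least 1 CPM in a library was 0.17, and by class it was 0.63 for fibrillar, -0.34 for basement membrane and -0.18 for other genes. All replication comes from the 2 papillomas, which leave 1 residual degree of freedom, and the lone skin and tumour libraries are assumed to vary likewise. The 2 genes left out by the filter on low counts were Col9a1 and Col9a2, both with at most 10 counts in any library.

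Tumour against papilloma asks what differs between the carcinoma and the benign lesion, and it shares the papilloma libraries with the comparison above. Col8a1 had the largest rise and Col4a6 the deepest fall of the collagen genes called. The same fit called 5 of 40 collagen genes higher (Col18a1, Col5a2, Col8a1, Col8a2 and Col9a3) and 2 lower (Col4a6 and Col23a1), or 17.5%, against 22.5% of all genes, 11.9% higher and 10.6% lower. A share of this size lies under that of all genes, so the calls are given gene by gene. The median log2 ratio was 0.34 over the collagen genes and -0.00 over all 15140 genes with at least 1 CPM in a library.

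**Figure D2:**
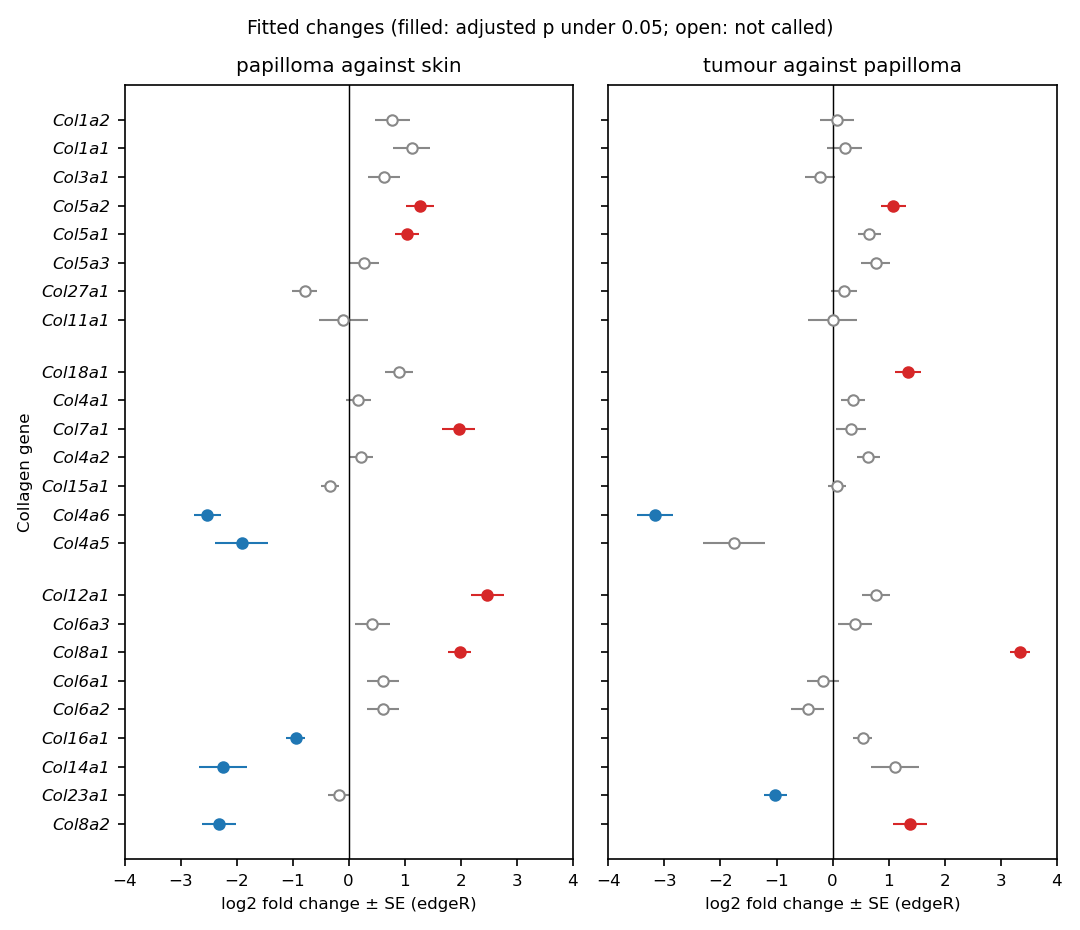
edgeR log2 fold changes (x axis, bars are ± SE) of the 24 collagen genes with at least 10 CPM in a library (y axis, by class), for papilloma against skin on the left and tumour against papilloma on the right. Filled points passed an adjusted p under 0.05: Col12a1, at 2.48, is farthest to the right in the left panel, and Col8a1, at 3.35, in the right panel, where Col4a6 is farthest to the left at -3.18.

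Among fibrillar genes, 2 of 11 rose in papilloma, both for type V collagen, which starts and limits the width of type I fibres, and 9 did not pass the test. The share called, 18.2%, lay under the 26.0% of all genes. Col5a2 (mm9 chromosome 1, 45431176 to 45560127) had 86.6 CPM in skin, 231 and 184 CPM in the first and second papilloma, 442 CPM in the tumour, 1.14 CPM in mSCC-20 and 31.4 CPM in mSCC-38. It rose in papilloma by 1.27 ± 0.25 on the log2 scale (SE, edgeR adjusted p = 0.0274) and again in the tumour by 1.09 ± 0.23 (edgeR adjusted p = 0.0325), the only fibrillar gene called in the second comparison. Its partner Col5a1 stood at 82.8 CPM in skin, 183 and 157 CPM in the papillomas, 269 CPM in the tumour, 2.92 CPM in mSCC-20 and 92.2 CPM in mSCC-38. Col5a1 rose by 1.04 ± 0.22 in papilloma (edgeR adjusted p = 0.0304) and was at 0.66 ± 0.20 in tumour against papilloma, which did not pass (edgeR adjusted p = 0.0788) but did in DESeq2's Wald test (adjusted p = 0.0312) and with total-count scaling (edgeR adjusted p = 0.047). Its papilloma call was lost with total-count scaling (0.61, edgeR adjusted p = 0.0695). The third type V chain gene, Col5a3, measured 40.9 CPM in skin, 59.0 and 39.7 CPM in the papillomas, 84.7 CPM in the tumour, 0.519 CPM in mSCC-20 and 7.45 CPM in mSCC-38. Papilloma 2 lay below skin for Col5a3 and the tumour above all other libraries.

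The 3 genes of types I and III, the bulk of dermal fibres, held 52.8% of the family's counts in skin and 45.9% in the tumour. Col1a2 (mm9 chromosome 6, 4455697 to 4491543) had 911 CPM in skin, 1734 and 1379 CPM in the papillomas, 1649 CPM in the tumour, 2.18 CPM in mSCC-20 and 2.78 CPM in mSCC-38. Col1a1 (chromosome 11, 94797584 to 94813170) stood at 593 CPM in skin, 1491 and 1095 CPM in the papillomas, 1509 CPM in the tumour, 2.18 CPM in mSCC-20 and 123 CPM in mSCC-38. Col3a1 measured 736 CPM in skin, 1225 and 1044 CPM in the papillomas, 978 CPM in the tumour, 1.49 CPM in mSCC-20 and 28.9 CPM in mSCC-38. All 3 were higher in each lesion than in skin, yet none passed the test: the log2 fold changes in papilloma were 1.13 ± 0.33 for Col1a1, 0.78 ± 0.31 for Col1a2 and 0.63 ± 0.28 for Col3a1 (edgeR adjusted p = 0.0649, 0.124 and 0.15). DESeq2's Wald test called all 3 higher. In tumour against papilloma the 3 values lay between -0.22 ± 0.27 for Col3a1 and 0.22 ± 0.31 for Col1a1 (edgeR adjusted p = 0.588 and 0.644), smaller than their own SE.

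The other fibrillar genes were low. Col27a1 had 19.4 CPM in skin, 12.2 and 10.2 CPM in the papillomas, 12.96 CPM in the tumour, 1.56 CPM in mSCC-20 and 0.272 CPM in mSCC-38, so skin was the highest library. Col11a1, a partner of cartilage fibrils that tumour stroma can also express, stood at 9.23 CPM in skin, 5.86 and 11.3 CPM in the papillomas, 8.64 CPM in the tumour, 0.0325 CPM in mSCC-20 and 0.634 CPM in mSCC-38. The papillomas lay on both sides of skin and tumour for Col11a1, and neither comparison called it (edgeR adjusted p = 0.876 and 0.998). Col2a1, Col11a2 and Col24a1 stayed at or under 6.66 CPM in every library and were not called in either comparison.

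The basement membrane genes did not move as a group: 1 of 9 rose and 3 fell in papilloma, and 1 rose and 1 fell in tumour against papilloma. The shares called were 44.4% and 22.2%, against 26.0% and 22.5% of all genes. Type IV collagen has 6 chain genes, arranged as 3 head-to-head pairs. In mm9, 2 bases lie between the start sites of Col4a1 and Col4a2 (chromosome 8). Between the start sites lie 71 bases for Col4a3 and Col4a4 (chromosome 1) and 1342 for Col4a5 and Col4a6 (chromosome X). Col4a1 and Col4a2, which form the type IV trimer of most basement membranes, were the most even of the 24 genes over the 6 libraries. Col4a1 measured 285 CPM in skin, 334 and 306 CPM in the papillomas, 414 CPM in the tumour, 484 CPM in mSCC-20 and 258 CPM in mSCC-38. Col4a2 had 159 CPM in skin, 199 and 171 CPM in the papillomas, 289 CPM in the tumour, 219.6 CPM in mSCC-20 and 271 CPM in mSCC-38. Neither was called in papilloma against skin or in tumour against papilloma (edgeR adjusted p between 0.0887 and 0.572), but Col4a2 passed in tumour against papilloma in DESeq2's Wald test (adjusted p = 0.0336) and with total-count scaling (edgeR adjusted p = 0.0495). For papilloma against skin the small positive values of both genes turned to -0.25 and -0.21 with total-count scaling.

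Col4a5 and Col4a6, whose chains are found in the basement membrane under epidermis, were highest in skin. Col4a6 (mm9 chromosome X, 137599946 to 137908619) had 31.0 CPM in skin, 4.83 and 5.90 CPM in the papillomas, 0.593 CPM in the tumour, 2.66 CPM in mSCC-20 and 0.0603 CPM in mSCC-38. Its levels went down in steps from skin to papilloma to tumour, and the tumour value rests on 25 counts against 1539 in skin. It fell by 2.52 ± 0.24 on the log2 scale in papilloma (edgeR adjusted p = 0.00797) and by a further 3.18 ± 0.32 in the tumour (edgeR adjusted p = 0.00607). Col4a5 (chromosome X, 137909962 to 138123778) stood at 29.2 CPM in skin, 4.73 and 10.7 CPM in the papillomas, 2.30 CPM in the tumour, 10.7 CPM in mSCC-20 and 13.7 CPM in mSCC-38. It fell by 1.91 ± 0.48 in papilloma (edgeR adjusted p = 0.0458), a call that was lost with DESeq2-style size factors (edgeR adjusted p = 0.0716). Its log2 ratio, with 0.5 CPM added to each side, was -1.86, and became -1.41 when papilloma 1 was left out and -2.51 when papilloma 2 was. In tumour against papilloma Col4a5 was at -1.76 ± 0.55 and did not pass (edgeR adjusted p = 0.0848), though it did in DESeq2's Wald test (adjusted p = 0.0153) and without the filter on low counts (edgeR adjusted p = 0.0433). Col4a3 and Col4a4, which are known for the kidney basement membrane, peaked in skin at 2.98 and 3.66 CPM, and the former, named after its values were seen, fell in papilloma by 2.17 ± 0.47 (edgeR adjusted p = 0.0331), a call that DESeq2's Wald test did not make (adjusted p = 0.116).

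Genes of the zone around the basement membrane went different ways. Col7a1, which forms the anchoring fibrils that fix epidermis to dermis (mm9 chromosome 9, 108855790 to 108886920), measured 63.0 CPM in skin, 284 and 205 CPM in the papillomas, 309 CPM in the tumour, 34.3 CPM in mSCC-20 and 77.8 CPM in mSCC-38. All 3 lesions lay above skin, and the rise in papilloma was 1.96 ± 0.30 (edgeR adjusted p = 0.0166), with 0.33 ± 0.26 in tumour against papilloma (edgeR adjusted p = 0.406). Col18a1, the source of the fragment endostatin, had 146 CPM in skin, 298 and 242 CPM in the papillomas, 688 CPM in the tumour, 259 CPM in mSCC-20 and 494 CPM in mSCC-38. It was at 0.89 ± 0.25 in papilloma against skin (edgeR adjusted p = 0.0594, DESeq2 adjusted p = 0.0014) and rose by 1.34 ± 0.23 in the tumour (edgeR adjusted p = 0.0206). Col15a1, of vessel and muscle basement membranes, stood at 87.0 CPM in skin, 70.9 and 66.4 CPM in the papillomas, 72.9 CPM in the tumour, 0.0974 CPM in mSCC-20 and 0.211 CPM in mSCC-38. Neither comparison called it, and the lines held only 3 and 7 counts of it.

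**Figure D3:**
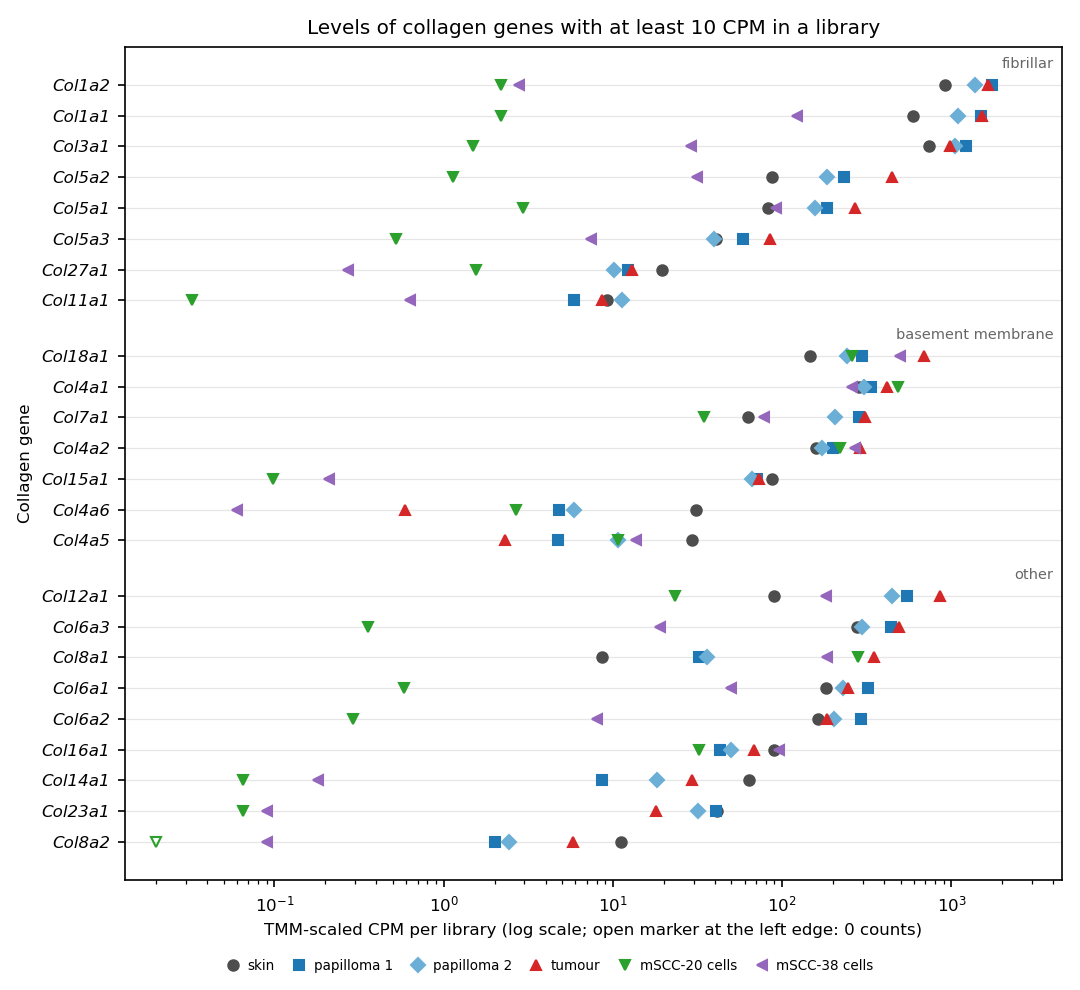
TMM-scaled CPM on a log axis (x) of the 24 collagen genes with at least 10 CPM in a library (y axis, by class), with 1 marker per library and an open marker for 0 counts. Markers of the lines sit far to the left of the biopsies for Col1a2, Col15a1, Col14a1 and Col23a1, and beside or among the biopsies for Col4a1, Col4a2, Col18a1, Col8a1 and Col16a1.

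Of the 22 other collagen genes 20 were tested, of which 4 rose and 6 fell in papilloma, and 3 rose and 1 fell in tumour against papilloma. Over all genes 26.0% were called in the first comparison and 22.5% in the second. The share called among these collagen genes lay above that of all genes in papilloma and under it in tumour against papilloma. Col8a1, a short chain that builds hexagonal networks in vessel walls and the eye (mm9 chromosome 16, 57624369 to 57754850), measured 8.63 CPM in skin, 32.3 and 35.7 CPM in the papillomas, 347 CPM in the tumour, 279 CPM in mSCC-20 and 183 CPM in mSCC-38. Skin was lowest, the papillomas lay close together, and the tumour and both lines stood well above them. It rose by 1.98 ± 0.20 on the log2 scale in papilloma (edgeR adjusted p = 0.00829) and by 3.35 ± 0.18 in the tumour (edgeR adjusted p = 0.00227). Its partner gene Col8a2 had 11.2 CPM in skin, 2.02 and 2.44 CPM in the papillomas, 5.84 CPM in the tumour, 0 counts in mSCC-20 and 0.0905 CPM in mSCC-38. Col8a2 fell by 2.32 ± 0.30 in papilloma (edgeR adjusted p = 0.0126) and rose by 1.38 ± 0.30 in the tumour (edgeR adjusted p = 0.0366), where DESeq2's Wald test gave an adjusted p of 0.0587 and edgeR with total-count scaling one of 0.0523. The partners therefore went opposite ways in papilloma.

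Col8a1 and Col4a6 mark the ends of the range in tumour against papilloma, so the 250 bases before the start site of each are shown, from RefSeq's GRCm38.p6, 5′ to 3′ on the gene's own strand. Col8a1 lies on the minus strand at chr16:57754738-57754987 and Col4a6 on the minus strand at chrX:141474077-141474326, and no exon of the GENCODE M21 annotation overlaps either window. Capitals mark matches, on either strand, to the CCAAT box, to GGGCGG (the GC box that Sp1 factors bind) or to the motif TGANTCA (the TPA response element, which AP-1 binds).
Col8a1: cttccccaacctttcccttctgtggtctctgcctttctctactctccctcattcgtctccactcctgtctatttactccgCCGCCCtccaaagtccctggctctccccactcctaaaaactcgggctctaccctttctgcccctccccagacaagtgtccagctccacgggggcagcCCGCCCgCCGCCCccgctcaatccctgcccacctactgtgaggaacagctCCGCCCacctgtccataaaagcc
Col4a6: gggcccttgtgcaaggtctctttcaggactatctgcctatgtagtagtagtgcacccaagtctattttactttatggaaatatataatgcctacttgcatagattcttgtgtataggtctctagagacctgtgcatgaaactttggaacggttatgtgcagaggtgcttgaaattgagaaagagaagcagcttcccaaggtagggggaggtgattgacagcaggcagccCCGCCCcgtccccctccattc
Every match in these windows was GGGCGG, read here as CCGCCC on the other strand, with 4 matches before Col8a1 and 1 before Col4a6. Of 42 collagen genes 34 had a window in the RefSeq table (37 windows). GGGCGG was in 22 of the 37 windows and in 32.7% of all 32851 windows of the table, CCAAT in 12 of 37 and 33.8% of all, and TGANTCA in 1 of 37, before Col6a1, and 6.75% of all. Matches describe these letters only.

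Fibril-associated collagens, which sit on the surface of fibrils, had 1 rise (Col12a1) and 5 falls in papilloma among 7 tested genes. Of all genes, 12.0% were called higher and 14.1% lower in that comparison. Col12a1 (mm9 chromosome 9, 79446798 to 79566485) stood at 89.5 CPM in skin, 549.8 and 444 CPM in the papillomas, 857 CPM in the tumour, 23.3 CPM in mSCC-20 and 182 CPM in mSCC-38. It rose by 2.48 ± 0.29 in papilloma (edgeR adjusted p = 0.0104), the largest rise of a collagen gene there, and was at 0.78 ± 0.25 in tumour against papilloma (edgeR adjusted p = 0.0865), which DESeq2's Wald test called (adjusted p = 0.00913), as did edgeR with total-count scaling (adjusted p = 0.0346). Col14a1, its relative in quiescent dermis, measured 63.8 CPM in skin, 8.58 and 18.2 CPM in the papillomas, 29.1 CPM in the tumour, 0.0649 CPM in mSCC-20 and 0.181 CPM in mSCC-38. Every lesion lay below skin for Col14a1, and it fell by 2.24 ± 0.42 in papilloma (edgeR adjusted p = 0.0249). Its log2 ratio with 0.5 CPM added was -2.21, and became -1.78 when papilloma 1 was left out and -2.82 when papilloma 2 was. Col16a1 had 89.8 CPM in skin, 43.0 and 50.01 CPM in the papillomas, 68.0 CPM in the tumour, 32.3 CPM in mSCC-20 and 95.7 CPM in mSCC-38, and fell by 0.94 ± 0.17 in papilloma (edgeR adjusted p = 0.0214). The 3 further falls, named after their values were seen, were of Col9a3, Col20a1 and Col22a1, of which the last went from 37 counts in skin to 2 and 1 in the papillomas. The calls of Col20a1 and Col22a1 were lost with DESeq2-style size factors (edgeR adjusted p = 0.0553 and 0.0542) and were not made by DESeq2's Wald test, which gave Col22a1 no adjusted p. Col9a3 stood at 3.42 CPM in skin, 0.375 and 0.777 CPM in the papillomas and 4.68 CPM in the tumour, where it rose by 2.98 ± 0.51 (edgeR adjusted p = 0.0197). Its model overlaps Tcfl5 on the other strand, and reads of the 2 genes could not be told apart.

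Type VI collagen forms beaded filaments around cells, and it has 3 abundant genes here. Col6a1 measured 181 CPM in skin, 322 and 228 CPM in the papillomas, 245 CPM in the tumour, 0.584 CPM in mSCC-20 and 49.9 CPM in mSCC-38. Col6a2 had 163 CPM in skin, 294 and 204 CPM in the papillomas, 183 CPM in the tumour, 0.292 CPM in mSCC-20 and 8.06 CPM in mSCC-38. Col6a3 stood at 277 CPM in skin, 441 and 298 CPM in the papillomas, 491 CPM in the tumour, 0.357 CPM in mSCC-20 and 19.0 CPM in mSCC-38. On the TMM scale each was higher in every lesion than in skin, but no difference passed in either comparison (edgeR adjusted p between 0.17 and 0.682). With total-count scaling Col6a3 was at -0.0172 in papilloma. On that scale papilloma 2 lay below skin for Col6a1 (215 against 217 CPM), Col6a2 (192 against 196 CPM) and Col6a3 (281 against 332 CPM). The tumour lay below skin there for Col6a2 (180 against 196 CPM). Of the 3 low type VI genes 1 was called: Col6a4, named after its values were seen, rose by 2.30 ± 0.41 (edgeR adjusted p = 0.0219), with 0.966 CPM in skin against 5.39 and 4.17 CPM in the papillomas.

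The transmembrane collagens stay on the cell surface. Col23a1 measured 41.3 CPM in skin, 40.8 and 31.9 CPM in the papillomas, 18.0 CPM in the tumour, 0.0649 CPM in mSCC-20 and 0.0905 CPM in mSCC-38. It fell in the tumour by 1.02 ± 0.21 (edgeR adjusted p = 0.0301) and was nearly equal in skin and papilloma 1. Col13a1, named after its values were seen, had 2.57 CPM in skin, 8.91 and 5.97 CPM in the papillomas and 4.04 CPM in the tumour, and its rise in papilloma of 1.53 ± 0.40 was at the threshold (edgeR adjusted p = 0.04999). That call was lost with DESeq2-style size factors, with total-count scaling and with all 6 libraries fitted.

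The papillomas differed little from each other in these genes. The ratio of papilloma 2 to papilloma 1 was within 1.5-fold for 21 of the 24 genes with at least 10 CPM in a library, with a median of 0.843 and a range from 0.673 for Col5a3 to 2.26 for Col4a5. Papilloma 2 was the lower in 17 of them and the higher in 7. The 3 genes outside 1.5-fold were Col4a5, Col14a1 and Col11a1, each higher in papilloma 2.

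Tumour against skin has 1 library per side and was described by size, a ratio of at least 4-fold (0.5 CPM added to each side) with at least 10 CPM in the higher library, without a p-value. By this rule 5 of the 23 collagen genes with at least 10 CPM were higher (Col8a1, Col12a1, Col5a2, Col7a1 and Col18a1) and 2 lower (Col4a5 and Col4a6). Of all 11114 genes with at least 10 CPM in the higher library, 14.3% passed, 5.23% higher and 9.11% lower. Col8a1 was 40.3-fold higher (95% counting interval 36.6 to 44.4) and Col12a1 9.58-fold (9.29 to 9.89). Col5a2, Col7a1 and Col18a1 were 5.11-fold, 4.91-fold and 4.71-fold higher. Col4a6 was 52.2-fold lower (35.2 to 80.9) and Col4a5 12.7-fold lower (10.3 to 15.8). With total-count scaling 3 genes were higher by this rule. The abundant fibrillar genes stood lower on this scale, at 2.54-fold for Col1a1, 1.81-fold for Col1a2 and 1.33-fold for Col3a1.

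The comparison of mSCC-38 with mSCC-20 sets a line called highly tumorigenic beside one called non-tumorigenic. All 7 collagen genes past the same rule were higher in mSCC-38, of 14 with at least 10 CPM in a line, and 0 were lower. Of all 9797 genes with at least 10 CPM in the higher line, 10.1% passed, 6.84% higher and 3.28% lower. The 7 collagen genes were 4 fibrillar genes (Col1a1, Col3a1, Col5a1 and Col5a2), the type VI genes Col6a1 and Col6a3, and Col12a1. Col1a1 was 56.4-fold higher (95% counting interval 44.3 to 72.9), Col6a1 85.3-fold (53.8 to 144) and Col5a1 31.5-fold (25.6 to 39.3). Col12a1 was 7.81-fold higher (7.22 to 8.45). Col4a1, Col4a2, Col18a1, Col7a1, Col8a1, Col16a1 and Col4a5 differed by less than 4-fold, from 0.534 times the mSCC-20 level for Col4a1 to 2.96 times for Col16a1. With 1 culture per line, a difference between cultures of the same line cannot be told apart from one between the lines.

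Many collagen genes in the lines were as low as genes that a keratinocyte line should lack. As a share of the highest library, Col1a2 in mSCC-20 was at 0.125%, Col1a1 at 0.144%, Col3a1 at 0.122% and Col6a3 at 0.0727%, while 6 skeletal muscle genes in the same library ran from 0.0371% to 0.467%. Of the 24 genes with at least 10 CPM in a library, 12 lay at or under that upper value in mSCC-20, among them Col5a2, Col6a1 and Col6a2. With 5 adipocyte and 5 endothelial genes added the upper value was 1.73%, set by the endothelial gene Pecam1, and 14 genes lay at or under it, with Col5a1 (1.09%) and Col5a3 (0.613%) as the additions. Fibrillar Col27a1, at 8.04%, lay above both values. The fold differences between the lines of Col1a1, Col3a1, Col5a2, Col6a1 and Col6a3, and by the wider list Col5a1, therefore start from a level that cannot be told from background. In mSCC-38 the muscle genes ran up to 0.546%, and 5 of the 24 genes lay at or under it (Col1a2, Col4a6, Col14a1, Col15a1 and Col23a1). With all 16 marker genes the upper value was 4.17%, again from Pecam1, and 10 genes lay at or under it, the additions being Col3a1 (2.36%), Col6a2 (2.74%), Col6a3 (3.88%), Col8a2 (0.811%) and Col27a1 (1.40%). Above both values in mSCC-38 were, among others, Col1a1 at 8.13%, Col5a2 at 7.10%, Col6a1 at 15.5% and Col5a1 at 34.3% of the highest library. Both lines held Col4a1, Col4a2, Col18a1 and Col8a1 at 37.7% or more of the highest library.

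Chains of one collagen type can be set against each other when levels are divided by gene length. In skin, the papillomas, the tumour and mSCC-20 the ratio of Col1a1 to Col1a2 in CPM per kilobase was 0.713, 0.942, 0.870, 1.00 and 1.10. The mSCC-20 value (95% counting interval 0.769 to 1.56) rests on 67 counts of each gene, both at the level of the muscle genes there. In mSCC-38 the ratio was 48.4 (95% counting interval 39.4 to 60.2), from 4064 counts of Col1a1 and 92 of Col1a2. In the biopsies the ratio thus stayed between 0.713 in skin and 1.00 in the tumour, while mSCC-38 held Col1a1 with Col1a2 at the level of the muscle genes. The ratio of Col4a5 to Col4a6 was 0.968 in skin, 1.01 and 1.86 in the papillomas, 3.98 (2.54 to 6.45) in the tumour, 4.14 (3.24 to 5.34) in mSCC-20 and 233 (64.1 to 1928) in mSCC-38, where Col4a6 had 2 counts. Only skin and papilloma 1 held this pair at nearly equal levels. The Col4a1 to Col4a2 ratio stayed between 0.927 in mSCC-38 and 2.14 in mSCC-20. Col6a1 to Col6a2 was between 1.03 and 1.25 in the biopsies and 5.81 (5.11 to 6.64) in mSCC-38. The Col5a1 to Col5a2 ratio was lowest in the tumour, at 0.479, and reached 0.753 in skin, the highest of the biopsies. It was higher in both lines, at 2.02 (1.36 to 3.08) in mSCC-20, from 90 and 35 counts, and 2.31 (2.15 to 2.48) in mSCC-38. Among fibrillar genes the order of levels per kilobase was Col1a2, Col3a1, Col1a1 in skin (179, 133 and 128 CPM per kilobase) and Col1a1, Col1a2, Col3a1 in the tumour (325, 324 and 177), where the first 2 do not differ beyond counting error.

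**Figure D4:**
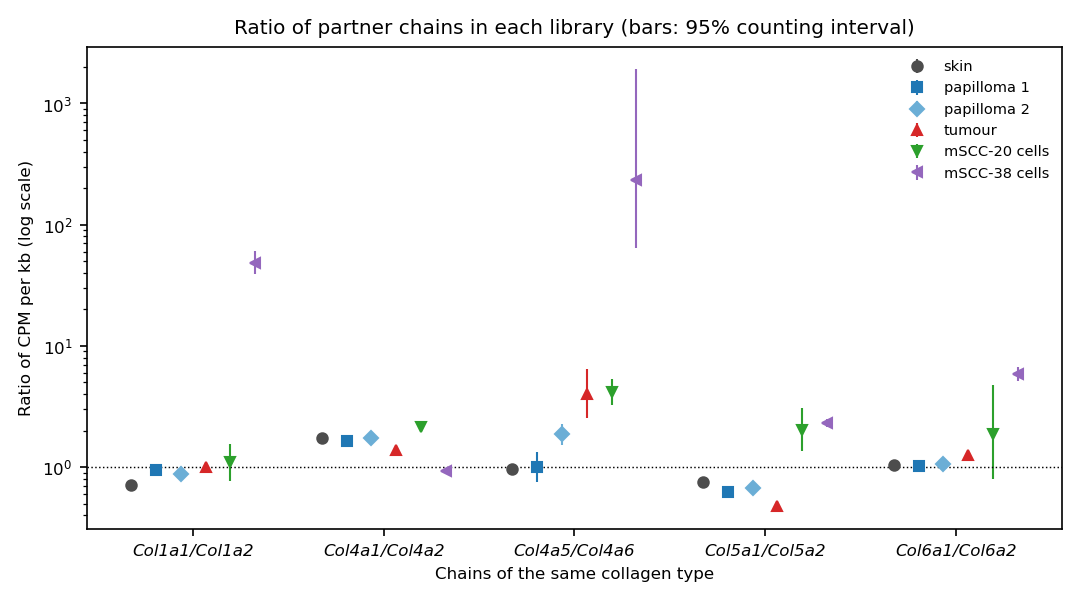
Ratio of partner chains in CPM per kilobase (y axis, log scale) for 5 pairs (x axis), with 1 marker per library and 95% counting intervals as bars. The mSCC-38 marker stands apart at 48.4 for Col1a1/Col1a2, 233 for Col4a5/Col4a6 and 5.81 for Col6a1/Col6a2.

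Genes that mature collagen, a list of hydroxylases, chaperones, propeptide proteases and crosslinking enzymes, were measured beside the chains. Of 27 tested, 4 rose and 4 fell in papilloma (29.6% called), and 12 rose in tumour against papilloma while 15 did not pass (44.4% called). Over all genes 26.0% were called in the first comparison and 22.5% in the second, 11.9% higher. The 12 were the lysyl oxidase genes Lox, Loxl1, Loxl2 and Loxl3, which crosslink fibres, the lysyl hydroxylase genes Plod1 and Plod2, the prolyl hydroxylase genes P4ha1, P4ha2 and Lepre1, the chaperone gene Fkbp10, and Bmp1 and Pcolce2, which act in propeptide removal. Of these, Loxl1 and Pcolce2 had fallen in papilloma, and Pcolce2 stayed below skin (32.2 CPM) at 13.8 CPM in the tumour. The summed level of the list did not rise, at 2919 and 2513 CPM in the papillomas and 2504 CPM in the tumour. P4hb had 1744 and 1399 CPM in the papillomas and 839 CPM in the tumour, and was not called in that comparison. Lox stood at 19.4 CPM in skin, 24.1 and 23.5 CPM in the papillomas, 73.8 CPM in the tumour, 0.130 CPM in mSCC-20 and 16.5 CPM in mSCC-38, a rise in the tumour of 1.63 ± 0.13 (edgeR adjusted p = 0.00426). Fkbp10 was at 18.7, 40.9, 26.2 and 112 CPM in skin, papilloma 1, papilloma 2 and tumour and rose in the tumour by 1.74 ± 0.28 (edgeR adjusted p = 0.0163). The propeptide enhancer gene Pcolce was at 3.02 CPM in mSCC-20 and 327 CPM in mSCC-38. Other genes of the list went the other way between the lines: Loxl4 was at 60.5 CPM in mSCC-20 and 0.634 CPM in mSCC-38, and Fkbp10 at 21.3 and 1.78 CPM. Mia3, which helps load collagen into transport vesicles, was listed at 0 in all 6 libraries.

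Among collagen receptor genes 2 of 9 rose and 1 fell in papilloma, and 2 rose and 2 fell in tumour against papilloma, where 26.0% and 22.5% of all genes were called. Itga2, the integrin subunit by which keratinocytes bind fibrillar collagen, measured 6.34 CPM in skin, 27.4 and 32.6 CPM in the papillomas, 77.7 CPM in the tumour, 1.30 CPM in mSCC-20 and 83.8 CPM in mSCC-38. It rose in both comparisons, by 2.25 ± 0.19 and 1.37 ± 0.16 (edgeR adjusted p = 0.00661 and 0.00876). Ddr1, a receptor tyrosine kinase for collagen, fell in both, from 141 CPM in skin to 75.6 and 85.6 CPM in the papillomas and 42.1 CPM in the tumour, and its relative Ddr2 fell in the tumour by 1.51 ± 0.15 (edgeR adjusted p = 0.00611). Of 6 collagen-cleaving enzyme genes 2 rose in papilloma and 3 in tumour against papilloma, and the others did not pass, with 12.0% and 11.9% of all genes called higher. The collagenase gene Mmp13 had 1.43 CPM in skin, 223 and 128 CPM in the papillomas and 1145 CPM in the tumour.

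Collagen levels in a biopsy depend on its cells, and fewer cells of a type cannot be told apart from less RNA per cell in bulk samples. The summed level of 8 fibroblast marker genes was 1398 CPM in skin, 637 and 643 CPM in the papillomas and 370.1 CPM in the tumour, with no marker at 0 in any library. In papilloma 4 of the 8 fell (Dcn, Dpt, Fap and Thy1) and Fbln1 rose, and in tumour against papilloma Dcn, Dpt and Lum fell. Over all genes 12.0% were called higher and 14.1% lower in the first comparison, and 11.9% and 10.6% in the second. Dcn weighed most in the skin sum, at 859 CPM in skin and 83.4 CPM in the tumour. Pdgfra (65.3 and 72.1 CPM), Twist2 (8.77 and 13.7 CPM) and Fbln1 (47.7 and 78.6 CPM) were higher in the tumour than in skin. The other markers were lower there than in skin. The summed fibrillar collagen level ran the other way from the marker sum, at 2485 CPM in skin, 4950.3 and 3928 CPM in the papillomas and 4960.5 CPM in the tumour. Skeletal muscle markers summed to 8844 CPM in skin, 1706 and 1034 CPM in the papillomas and 608 CPM in the tumour, and keratinocyte markers to 15198, 65345, 51292 and 32751 CPM. The RNA integrity number was lowest in skin, at 7.5, against 8.4 and 8.2 in the papillomas and 9.1 in the tumour. The part of these shifts in the collagen differences was not tested.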

How the data were processed

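The authors deposited 1 table of 23726 gene models with a raw count and an RPKM value per library, on build mm9 per the submitters' processing notes. Qiazol and miRNeasy columns gave the RNA, and a NEBNext small-library kit for SOLiD the libraries, per the labels' protocols. The sources used here name no aligner, counter or use of strand, so 4 collagen models that overlap another model cannot be separated from it. The deposited RPKM values were used only to check the counts: they imply totals of 99.2% to 99.6% of the summed counts per library. Counts were scaled by TMM factors (skin 1.20, papillomas 0.848 and 0.944, tumour 0.980, mSCC-20 0.992, mSCC-38 1.07).

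edgeR 4.0.16 (limma 3.58.1, R 4.3.3; filterByExpr, TMM, legacy quasi-likelihood test) was fitted to the 4 biopsies over 16353 genes, with group as the only term and Benjamini-Hochberg adjustment over all of them. Its common dispersion was 0.0773 and its total degrees of freedom 4.81. The SE was worked back from the fold change and the F statistic. DESeq2 1.42.0, other scalings, no filter, all 6 libraries in 5 groups, other pseudocounts and each papilloma left out were alternatives. The edgeR step was tested on simulated data. Single-library ratios carry exact Clopper-Pearson intervals (95%, SciPy 1.17.1). The genes with all values given are those with at least 10 CPM in a library. The collagen genes, gene lists and tests were chosen with earlier results of these data known.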

Additional observations from a re-analysis of the deposited data

How the results depend on the processing

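No paired analysis was possible because only the papilloma group has numbered replicates. For papilloma against skin, DESeq2's Wald test called 11 collagen genes higher, against 7 by edgeR, and 6 lower, against 9. Total-count scaling called 1015 genes higher and 3484 lower over all genes (1959 and 2298 with TMM), moved the median log2 ratio of collagen genes from 0.17 to -0.25, and turned the uncalled values of Col4a1 to -0.25, Col4a2 to -0.21, Col5a3 to -0.16 and Col6a3 to -0.0172. Without one or other papilloma that median ran from 0.10 to 0.23. Of the 16 collagen calls in papilloma against skin, 10 held in all 6 fits: Col12a1, Col5a2, Col6a4, Col7a1 and Col8a1 higher, and Col14a1, Col16a1, Col4a6, Col8a2 and Col9a3 lower. Further genes were called there under the alternatives: Col11a2, Col15a1 and Col27a1 with total-count scaling, Col18a1, Col1a1, Col27a1 and Col4a4 without the filter on low counts, and Col18a1 and Col1a1 with all 6 libraries fitted.

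For tumour against papilloma, 6 of 7 held in all 6 fits, the exception being Col8a2. The median log2 ratio was 0.45 with total-count scaling, 0.22 with 2 CPM added, and 0.31 to 0.43 without one or other papilloma. Uncalled values changed sign for Col11a1 (-0.000905 with DESeq2-style size factors) and Col6a4 (0.13 with total-count scaling). For tumour against skin, total-count scaling left 3 collagen genes at least 4-fold higher, and a 2-fold rule gave 8 higher and 4 lower. For mSCC-38 against mSCC-20, a minimum of 1 CPM gave 1 lower gene, Col4a6, in place of 0. Leaving out a papilloma leaves no residual degree of freedom, so ratios without a test were given, and no called collagen gene with its values in the text changed sign. Depth limits genes under about 1 CPM, where a library holds few counts.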
